A study of Mus musculus with 13 samples.

Results

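The genes described are 39 postsynaptic scaffold and signalling genes, the proteins that hold receptors in the membrane of a neuron facing a synapse and pass calcium signals on from them. They were chosen by gene symbol, and their values came from the probes whose platform annotation carries one of those symbols. Of the 39 genes, 36 had a named probe among the 18524 genes named on the array, and 33 were measured among 11927 genes in all. A gene counted as measured when a probe of it stood above the array's negative controls (detection p below 0.05) on at least 3 of the 13 arrays.

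RNA came from high-grade gliomas of 2 mouse models and from control brain. In the Nestin-creERT2 model an inducible Cre recombinase, which is switched on by tamoxifen-like drugs, is under the control of regulatory DNA of the nestin gene, which is active in stem cells and progenitors of the nervous system. The NG2-creERTM model takes its driver from the gene for NG2, a proteoglycan made by oligodendrocyte progenitors and also by pericytes, so neither driver is confined to a single cell type. In both models Cre removed tumor suppressor genes, which the labels do not name. There were 3 Nestin tumors with 3 Nestin controls, and 4 NG2 tumors with 3 NG2 controls. The design text counts 5 NG2 tumors, and 1 was not analysed here. Tumors were collected once mice had neurological symptoms. Each model had control mice of its own, sampled at the brain position that matched its tumors, and neither that position nor the genotype, age, sex or tamoxifen treatment of the mice is stated. The labels call the tumors independent and the controls biological replicates.

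An excitatory synapse ends on a dendritic spine whose membrane is underlaid by the postsynaptic density. PSD-95 and related proteins anchor glutamate receptors there, SAPAP proteins link them to Shank and Homer, and calcium entering through the receptors acts through calmodulin on kinases such as CaMKII and on the phosphatase calcineurin. Exchange factors for small GTPases reshape the actin of the spine. These proteins are known mainly from neurons, above all from projection neurons of the forebrain.

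The median raw signal ran from 175.7 to 209.1 on tumor arrays and from 116.9 to 142.1 on control arrays before normalization, and its part in the results was not tested. The share of probes detected ran from 43.46% to 47.52% over the arrays. Tumors and controls numbered 1 and 2 of the Nestin model shared slide 1. Slide 2 carried every NG2 tumor beside NG2 controls 1 and 2, and the arrays numbered 3 other than NG2 tumor 3 were on slide 3. Thus no slide held tumors of both models. Nestin tumor 3 stood apart in choroid plexus RNA: the level of Ttr, the transthyretin gene, was 14.18 log2 there, against 4.62 to 8.12 on the other 12 arrays. Without this array 28 of 33 members fell in Nestin tumors.

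Most of the measured postsynaptic genes were lower in tumors of either model. In Nestin tumors 30 of the 33 fell and 0 rose relative to Nestin controls (limma, Benjamini-Hochberg adjusted p below 0.05 over all 11927 genes). The background was 21.9% of all measured genes lower and 24.4% higher. In NG2 tumors 32 of the 33 fell and 0 rose relative to NG2 controls, against 24.1% of all genes lower and 26.6% higher. At an unadjusted p below 0.05 the number higher was also 0 in both comparisons, where 3390 of all 11927 genes were higher in Nestin tumors and 3597 in NG2 tumors. The members' median log2 change was -2.32 in Nestin tumors and -2.95 in NG2 tumors, and the median over all genes was 0.06 and 0.09.

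A gene seen only in control brain passes the detection rule through the controls alone, so counts over the 33 lean towards falls. Of these genes 20 were detected on every array, tumor and control alike. Among the 20, 17 fell in Nestin tumors and 20 in NG2 tumors, with median log2 changes of -2.10 and -2.67. The share of falls among all genes detected on every array was not computed, so these counts have no matched background. A total of 29 genes fell in both comparisons, where 16.5% of all measured genes did. Neto1 passed in Nestin tumors alone, and Camk2b, Homer2 and Ppp1r1a passed in NG2 tumors alone. Every tumor array lay below every control array for 32 of the 33 genes in each model (except Ppp1r1a in the Nestin model and Neto1 in the NG2 model), where 27.8% of all genes did so in the Nestin comparison and 24.3% in the NG2 comparison.

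**Figure D1:**
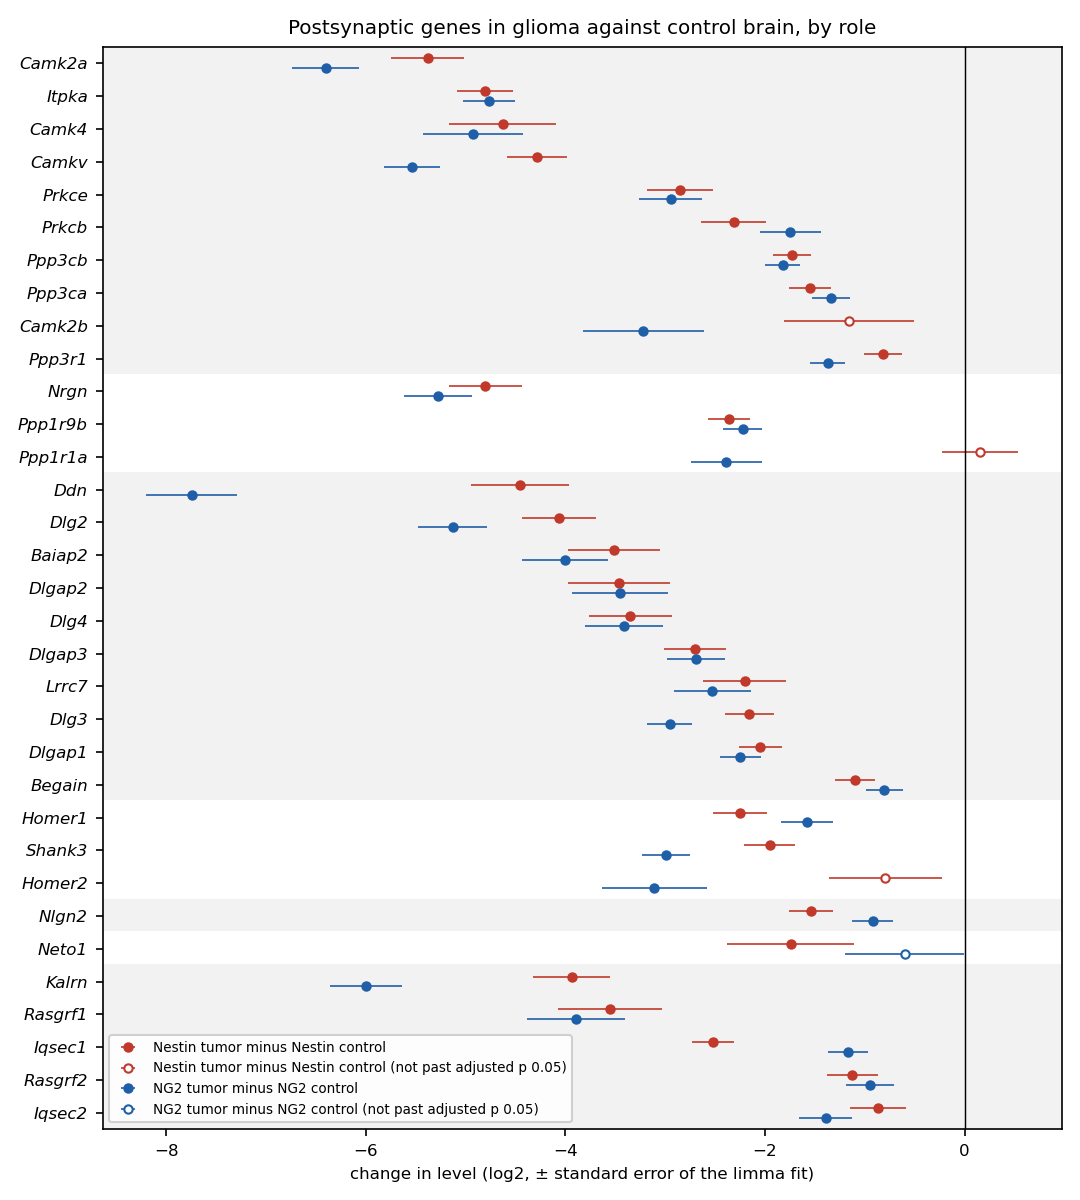
Change in level (log2, horizontal axis) of the 33 measured genes in Nestin tumors (red) and NG2 tumors (blue) against the controls of the same model, grouped by role; points are fitted changes, bars their standard errors, and open points did not pass an adjusted p of 0.05. All points except that of Ppp1r1a in Nestin tumors lie below 0, and the largest fitted fall is that of Ddn in NG2 tumors, where it was detected on 2 of 4 arrays.

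Within slides the falls were of like size. On slide 1 the members' median log2 change in Nestin tumors was -2.47 with 30 lower, where 1992 of all 11927 genes were lower. On slide 2 it was -2.82 in NG2 tumors with 31 lower, where 2156 of all genes were lower. On slide 3, with 1 Nestin tumor against 1 Nestin control and no test, 32 of 33 genes were lower and the median was -2.32.

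The calcium-dependent kinases and phosphatases held some of the deepest falls: 9 of 10 passed in Nestin tumors and 10 of 10 in NG2 tumors. Camk2a, the alpha subunit of CaMKII and one of the most abundant proteins of forebrain synapses, had levels of 8.13, 8.02 and 8.99 log2 in Nestin tumors, against 13.68, 13.79 and 13.81 in Nestin controls. The NG2 tumors had 5.61, 6.18, 7.35 and 6.56, against 12.94, 12.85 and 12.69 in NG2 controls. The tumor and control arrays of each model were far apart, and NG2 tumors lay below Nestin tumors on every array. Camk2a fell by 5.38 ± 0.36 log2 in Nestin tumors, which is 41.7-fold (adjusted p = 1.15e-07), and fell by 6.40 ± 0.34 in NG2 tumors, which is 84.6-fold (adjusted p = 5.66e-09; limma, ± SE, with 3 arrays a group and 4 for NG2 tumors throughout).

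Itpka, a kinase of inositol trisphosphate that binds spine actin, had 7.36, 7.43 and 7.06 log2 in Nestin tumors, against 12.15, 12.04 and 12.08 in Nestin controls. Among NG2 tumors its levels were 5.86, 5.62, 6.49 and 5.60, against 10.35, 11.12 and 10.50 in NG2 controls. Tumors were far below controls, and both NG2 groups were below the matching Nestin group. The changes were -4.81 ± 0.28 log2 in the Nestin model and -4.77 ± 0.26 in the NG2 model (adjusted p = 3.05e-08 and 7.29e-09), and the difference between them was -0.04 ± 0.38 (adjusted p = 0.968). Camk4, a nuclear calmodulin kinase that phosphorylates the transcription factor CREB, fell by 4.63 ± 0.53 in Nestin tumors and fell by 4.93 ± 0.50 in NG2 tumors. Camkv, a kinase-like protein of vesicles and spines that lacks catalytic activity, had log2 changes of -4.28 ± 0.30 and -5.54 ± 0.28.

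Both protein kinase C genes fell. The log2 change of Prkce was -2.85 ± 0.33 in Nestin tumors and -2.95 ± 0.31 in NG2 tumors, and that of Prkcb was -2.32 ± 0.33 and -1.75 ± 0.31. Calcineurin is built from a catalytic subunit, encoded here by Ppp3ca or Ppp3cb, and the regulatory subunit encoded by Ppp3r1. Ppp3cb, among the brightest probes of this group, had 12.42, 11.96 and 12.50 log2 in Nestin tumors, against 14.00, 14.16 and 13.90 in Nestin controls. Its levels were 11.85, 12.26, 11.90 and 12.34 in NG2 tumors, against 14.05, 13.73 and 13.94 in NG2 controls. The groups did not overlap, and the log2 changes were -1.73 ± 0.19 and -1.82 ± 0.18.

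Ppp3r1 had 13.08, 13.37 and 13.13 log2 in Nestin tumors, against 13.97, 14.11 and 13.95 in Nestin controls. NG2 tumor arrays gave 12.06, 12.14, 11.92 and 12.56, against 13.85, 13.33 and 13.46 in NG2 controls. Tumor arrays were the lower ones in both models, with log2 changes of -0.82 ± 0.19 in Nestin tumors and -1.37 ± 0.18 in NG2 tumors. After scaling arrays to their median the Nestin fall no longer passed (-0.42, adjusted p = 0.0852). Ppp3ca had log2 changes of -1.55 ± 0.21 and -1.34 ± 0.19. All 3 calcineurin genes were detected on every tumor array.

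Camk2b, the actin-binding beta subunit of CaMKII, passed in NG2 tumors alone. Its levels were 12.74, 12.40 and 12.76 log2 in Nestin tumors, against 13.82, 13.77 and 13.77 in Nestin controls. In NG2 tumors it had 8.58, 12.15, 12.02 and 11.21, against 14.26, 14.15 and 14.22 in NG2 controls. Every tumor array was below every control array, and NG2 tumor 1 was far below the other NG2 tumors. The NG2 change was -3.22 ± 0.61 log2 (adjusted p = 0.000567). The Nestin difference of -1.16 ± 0.65 did not pass in the fit to all 13 arrays (adjusted p = 0.162), whose spread includes NG2 tumor 1. Without NG2 tumor 1 it was -1.16 with an adjusted p of 0.00076, and with only the Nestin arrays fitted the adjusted p was 0.000566.

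Promoter sequence is shown for Itpka and Camkv, the members of this group with large falls in both models whose promoter held a searched motif. These are the 250 bases before the transcription start in RefSeq, build GRCm38.p6, for Itpka chr2:119742087-119742336 and for Camkv chr9:107935670-107935919, both on the plus strand. Capitals mark the GC box GGGGCGGGG, a binding sequence of SP and KLF factors, on either strand.
Itpka: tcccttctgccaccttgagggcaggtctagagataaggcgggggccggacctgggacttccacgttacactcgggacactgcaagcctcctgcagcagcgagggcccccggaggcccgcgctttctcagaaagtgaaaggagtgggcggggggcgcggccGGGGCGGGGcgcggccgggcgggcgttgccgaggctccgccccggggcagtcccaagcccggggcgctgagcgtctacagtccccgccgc
Camkv: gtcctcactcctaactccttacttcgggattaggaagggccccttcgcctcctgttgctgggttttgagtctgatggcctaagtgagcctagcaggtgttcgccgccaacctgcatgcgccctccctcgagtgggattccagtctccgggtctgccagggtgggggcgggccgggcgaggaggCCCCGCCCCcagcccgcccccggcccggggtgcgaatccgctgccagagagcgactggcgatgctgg

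Of the 39 genes, 28 had a promoter in the RefSeq table, and the GC box was in that of 12 (42.9%), against 22.7% of measured genes with a promoter and 11.8% of all genes with one. A gene counted if any of its promoters matched, and the sets differ in promoters for each gene. The 28 members had 43 promoters, and 9599 measured genes had 12357. The 28 also include members that were not measured, and 1 of these, Cnih2, is among the 12. The median GC content of the members' promoters was 65.2%, against 59.6% for measured genes and 52.4% for all. Both strands were also searched for 4 other motifs, counted separately from each other and from the GC box. The TATA sequence TATAAA was in the promoters of 3 of the 28 (10.7%; 8.56% of measured genes), and the cAMP response element TGACGTCA was in 0 (2.89%). The EGR sequence GCGTGGGCG was in 1, that of Shank3 (1.22%), and the REST sequence TTCAGCACC in 1, that of Nlgn1 (0.406%). A match describes the letters in this window and is no evidence of binding.

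The calmodulin buffer and the regulators of protein phosphatase 1 split. Nrgn, neurogranin, a small protein that holds calmodulin in spines at low calcium, had 7.75, 6.81 and 7.34 log2 in Nestin tumors, against 12.29, 11.89 and 12.12 in Nestin controls. The NG2 tumors had 4.71, 4.92, 5.85 and 5.63, with detection on 2 of 4 arrays, against 10.01, 10.55 and 11.09 in NG2 controls. No tumor array approached a control array, and Nrgn fell by 4.80 ± 0.36 in Nestin tumors and fell by 5.28 ± 0.34 in NG2 tumors (adjusted p = 2.94e-07 and 3.48e-08). Ppp1r9b, spinophilin, which brings protein phosphatase 1 to spine actin, had log2 changes of -2.36 ± 0.21 and -2.22 ± 0.20.

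Ppp1r1a, inhibitor 1 of protein phosphatase 1, was the exception. It had 11.25, 12.26 and 11.83 log2 in Nestin tumors, against 11.94, 11.11 and 11.82 in Nestin controls. Among NG2 tumors its levels were 10.16, 9.64, 8.76 and 8.88, against 11.42, 12.21 and 11.61 in NG2 controls. The Nestin groups overlapped throughout, with a log2 difference of 0.16 ± 0.38 and a 95% interval of -0.66 to 0.98 (adjusted p = 0.763). The NG2 groups did not overlap, and the change was -2.39 ± 0.36 (adjusted p = 8.27e-05). The difference between the effects in the 2 models was 2.54 ± 0.52 log2 (adjusted p = 0.0164). It did not pass with slide as a block (2.62, adjusted p = 0.0577), without Nestin control 2 (2.29, adjusted p = 0.0513) or without NG2 control 2 (2.31, adjusted p = 0.0545).

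**Figure D2:**
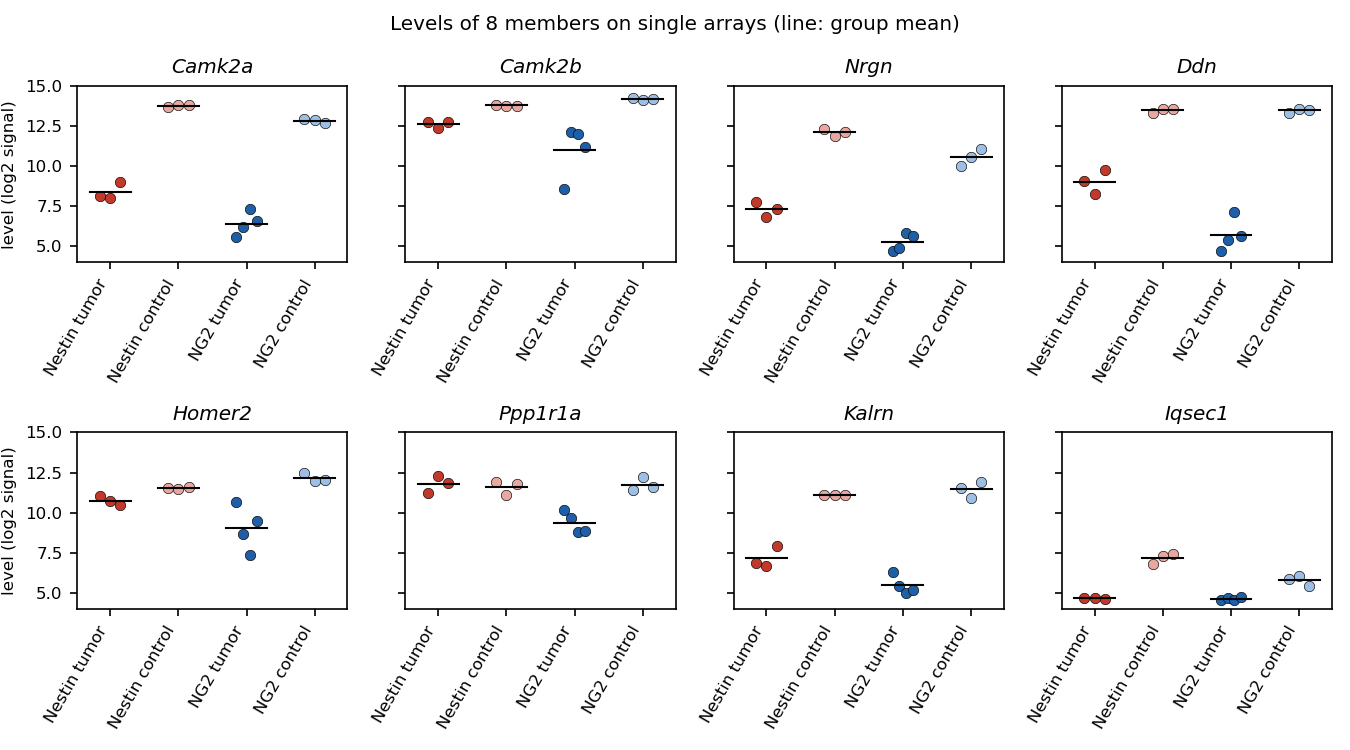
Levels of 8 members on single arrays (normalised log2 signal, vertical axis) in the 4 groups, with a line at each group mean. Camk2a, Nrgn and Ddn are far lower on every tumor array, while the Nestin tumors overlap the Nestin controls for Ppp1r1a.

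The scaffold proteins built around PSD-95 fell without exception, 10 of 10 in either model. The 3 membrane-associated guanylate kinases of the list are Dlg2 (PSD-93), Dlg3 (SAP102) and Dlg4 (PSD-95). The log2 change of Dlg2 was -4.06 ± 0.37 in Nestin tumors and -5.13 ± 0.35 in NG2 tumors. It was -2.16 ± 0.25 and -2.96 ± 0.23 for Dlg3, and -3.35 ± 0.42 and -3.42 ± 0.39 for Dlg4. Dlg4 had 7.29, 6.28 and 7.51 log2 in Nestin tumors, against 9.85, 10.55 and 10.72 in Nestin controls. NG2 tumor arrays gave 5.54, 6.99, 6.38 and 6.34, against 9.94, 10.10 and 9.14 in NG2 controls, with no overlap in either model.

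Dlgap1, Dlgap2 and Dlgap3 encode the SAPAP proteins that join PSD-95 to Shank. Dlgap1 had 11.46, 11.78 and 11.26 log2 in Nestin tumors, against 13.59, 13.39 and 13.67 in Nestin controls. In NG2 tumors it had 11.04, 11.81, 11.68 and 11.41, against 13.84, 13.44 and 13.91 in NG2 controls. The 7 tumor arrays were close to each other and below all controls, with log2 changes of -2.04 ± 0.22 and -2.25 ± 0.20. The log2 change of Dlgap2 was -3.46 ± 0.51 and -3.45 ± 0.48, and that of Dlgap3 was -2.70 ± 0.31 and -2.69 ± 0.29. Dlgap3 was detected on 2 of 3 Nestin tumor arrays and 1 of 4 NG2 tumor arrays, so these sizes rest in part on levels at background.

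Ddn encodes dendrin, a dendritic protein whose RNA is carried into dendrites. It had 9.08, 8.28 and 9.77 log2 in Nestin tumors, against 13.34, 13.58 and 13.57 in Nestin controls. The NG2 tumors had 4.71, 5.42, 7.16 and 5.64, with detection on 2 of 4 arrays, against 13.34, 13.59 and 13.51 in NG2 controls. The controls of both models were alike, and all NG2 tumors were below all Nestin tumors. Ddn fell by 4.45 ± 0.49 in Nestin tumors (21.9-fold, adjusted p = 8.19e-06) and fell by 7.74 ± 0.46 in NG2 tumors (adjusted p = 1.53e-08), a size that rests in part on the 2 arrays at background. The difference between these effects was 3.29 ± 0.67 log2 (adjusted p = 0.0155). It did not pass with slide as a block (3.28, adjusted p = 0.0554) or without NG2 control 3 (3.28, adjusted p = 0.0509).

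Among the other partners of PSD-95, Baiap2 (IRSp53, an actin and membrane adaptor) fell by 3.51 ± 0.46 in Nestin tumors and fell by 4.00 ± 0.43 in NG2 tumors. Lrrc7 (densin, which binds CaMKII) had log2 changes of -2.20 ± 0.42 and -2.53 ± 0.39, and like Dlgap3 it was detected on 2 of 3 Nestin tumor arrays and 1 of 4 NG2 tumor arrays. Begain, a binding partner of the guanylate kinase domain, was near background even in controls, at 5.37 to 6.30 log2 over the 6 control arrays. It was detected on 0 tumor arrays, and its fall is given as a bound. This was at least 1.32-fold for the Nestin model and at least 1.05-fold for the NG2 model. The fitted changes passed in limma (adjusted p = 0.000483 and 0.00238). That test sets controls against tumors at background and does not test the bounds.

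Shank and Homer proteins form the deeper layer of the postsynaptic density, and 3 of the 6 genes listed were measured. Shank3 had 8.16, 8.17 and 8.22 log2 in Nestin tumors, against 10.07, 10.14 and 10.20 in Nestin controls. Among NG2 tumors its levels were 6.66, 6.51, 5.998 and 6.41, against 8.91, 9.52 and 9.75 in NG2 controls. The Nestin tumors were nearly identical to each other, and NG2 tumors were lower than all Nestin tumors. The log2 changes were -1.95 ± 0.26 and -3.00 ± 0.24 (adjusted p = 3.98e-05 and 2.6e-07). The promoter of Shank3 is shown because it alone held both the GC box and the EGR sequence, with the EGR sequence first and the GC box nearer the start, both in capitals and both as the reverse complement of the letters given above. It lies at chr15:89499358-89499607 on the plus strand (RefSeq, GRCm38.p6, 250 bases before the start).
Shank3: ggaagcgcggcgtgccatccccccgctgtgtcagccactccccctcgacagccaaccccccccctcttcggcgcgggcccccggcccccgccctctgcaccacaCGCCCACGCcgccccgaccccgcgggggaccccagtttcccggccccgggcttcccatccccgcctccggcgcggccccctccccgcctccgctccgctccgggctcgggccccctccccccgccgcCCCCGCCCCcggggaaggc

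Homer1, whose long forms tie Shank to group I metabotropic glutamate receptors, had 9.60, 9.12 and 9.58 log2 in Nestin tumors, against 11.76, 11.90 and 11.40 in Nestin controls. NG2 tumor arrays gave 9.88, 9.97, 9.01 and 9.77, against 11.36, 10.86 and 11.48 in NG2 controls. The tumors of both models lay in the same range, with log2 changes of -2.25 ± 0.27 and -1.58 ± 0.26. Homer2 had 11.04, 10.74 and 10.47 in Nestin tumors, against 11.55, 11.51 and 11.58 in Nestin controls. In NG2 tumors it had 10.69, 8.69, 7.38 and 9.50, against 12.47, 11.98 and 12.06 in NG2 controls. NG2 tumors were spread over a wide range, and the Nestin tumors were all slightly below their controls. The NG2 change of -3.11 ± 0.53 passed (adjusted p = 0.000247), and the Nestin difference of -0.80 ± 0.57 did not (adjusted p = 0.268, or 0.00891 with only the Nestin arrays fitted). Shank1 was detected on at most 2 arrays by either of its probes and Shank2 on 0, and Homer3 had no named probe.

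Neuroligins are adhesion proteins that span the cleft to presynaptic neurexins. Nlgn2, the neuroligin of inhibitory synapses, was the measured one. It had 9.97, 9.72 and 10.02 log2 in Nestin tumors, against 11.58, 11.47 and 11.28 in Nestin controls. The NG2 tumors had 9.95, 10.71, 10.69 and 10.22, against 11.30, 11.16 and 11.47 in NG2 controls. It was lower on every tumor array, with log2 changes of -1.54 ± 0.22 in Nestin tumors and -0.92 ± 0.21 in NG2 tumors. The NG2 fall did not pass after median scaling (-0.36, adjusted p = 0.257). Nlgn1 was detected on 0 arrays, and Nlgn3 had no named probe.

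Neto1, an auxiliary subunit of kainate receptors, had 7.17, 6.06 and 6.31 log2 in Nestin tumors, against 8.11, 8.50 and 8.15 in Nestin controls. Among NG2 tumors its levels were 5.29, 7.84, 8.58 and 8.09, against 8.40, 8.14 and 7.62 in NG2 controls. NG2 tumor 1 was low, and the other NG2 tumors lay within or just above the range of their controls. Neto1 was the only member whose NG2 difference did not pass, at -0.60 ± 0.60 with a 95% interval of -1.89 to 0.68 (adjusted p = 0.423). The Nestin change of -1.74 ± 0.64 was close to the threshold (adjusted p = 0.0379). It did not pass without Nestin tumor 2 or 3, without any 1 of the Nestin controls, or without NG2 control 2 (adjusted p from 0.0503 to 0.106). Nor did it pass after median scaling (-1.26, adjusted p = 0.12), with no filter on dim probes (adjusted p = 0.0583), or with slide (adjusted p = 0.0606) or replicate number (adjusted p = 0.0534) as a block. Cnih2, an AMPA receptor subunit partner, had no named probe.

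The exchange factors for small GTPases fell in both models, 5 of 5, with Iqsec2 near the threshold in Nestin tumors. Kalrn, kalirin, which activates Rac in spines, had 6.87, 6.71 and 7.92 log2 in Nestin tumors, against 11.08, 11.13 and 11.10 in Nestin controls. NG2 tumor arrays gave 6.27, 5.45, 5.00 and 5.18, with detection on 1 of 4 arrays, against 11.57, 10.93 and 11.92 in NG2 controls. The NG2 tumors were near background and below all Nestin tumors. The log2 changes were -3.94 ± 0.38 and -6.00 ± 0.36 (adjusted p = 2.92e-06 and 1.8e-08). The difference between effects, 2.06 ± 0.53 (adjusted p = 0.045), rests on this probe: over the mean of the 4 kept Kalrn probes it was 0.47 (adjusted p = 0.447). It also did not pass with slide as a block (1.84, adjusted p = 0.124), or when any of Nestin tumor 3, NG2 tumors 2 to 4, the Nestin controls, or NG2 controls 1 and 3 was left out (adjusted p from 0.0505 to 0.129).

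Rasgrf1, a calcium- and calmodulin-dependent activator of Ras, had 10.96, 10.36 and 11.07 log2 in Nestin tumors, against 14.46, 14.32 and 14.27 in Nestin controls. In NG2 tumors it had 8.64, 11.60, 10.88 and 10.82, against 14.54, 14.23 and 14.36 in NG2 controls. NG2 tumor 1 was again the lowest, and tumors of both models were otherwise in one range. The log2 changes were -3.56 ± 0.52 and -3.89 ± 0.49. Its relative Rasgrf2 was detected on 0 tumor arrays, with a fall of at least 1.52-fold in the Nestin model and of at least 1.18-fold in the NG2 model. The fitted changes passed in limma (adjusted p = 0.00256 and 0.00449), which does not test the bounds.

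Iqsec1 and Iqsec2 encode activators of Arf GTPases at the postsynaptic density. Iqsec1 had 4.68, 4.70 and 4.60 log2 in Nestin tumors, against 6.80, 7.31 and 7.43 in Nestin controls. The NG2 tumors had 4.56, 4.67, 4.56 and 4.74, against 5.88, 6.07 and 5.45 in NG2 controls. It was detected on 0 tumor arrays, and the Nestin controls were above all NG2 controls. The fall was at least 3.41-fold in the Nestin model and at least 1.27-fold in the NG2 model. The fitted changes passed in limma (adjusted p = 7.51e-07 and 0.000228), which does not test the bounds. The fitted difference of effects of -1.35 ± 0.29 (adjusted p = 0.0196) sets tumors that are all at background against controls that differ. Iqsec2 had log2 changes of -0.87 ± 0.28 in Nestin tumors (adjusted p = 0.0209) and -1.39 ± 0.26 in NG2 tumors, and its dimmer probe had log2 changes of -2.81 and -2.90. The Nestin fall of the brighter probe did not pass after median scaling (-0.33, adjusted p = 0.395), within slide 1 (-0.73, adjusted p = 0.113), without Nestin tumor 3 (-0.68, adjusted p = 0.0896) or without Nestin control 2 (-0.80, adjusted p = 0.0739).

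Several probes measured 13 of the genes, and 0 of them had kept probes of opposite sign. For 8 genes the kept probes differed by over 1 log2 in a tumor comparison. Besides Kalrn and Iqsec2 these were Baiap2, Camk4, Dlgap1, Dlgap2, Prkce and Rasgrf1. For Camk4 the other probes, near background, gave log2 changes of -0.39 and -1.31 in Nestin tumors and of -0.07 and -0.49 in NG2 tumors, and for Prkce the other probe gave -0.09 and -0.10. Other Baiap2 probes gave -2.92 and -1.58 in Nestin tumors and -3.14 and -1.48 in NG2 tumors. Those of Dlgap2 gave -2.95 and -0.88, and -3.00 and -0.80. The 6 probes of Dlgap1 ran from -2.42 to -1.34 in Nestin tumors and from -2.25 to -1.66 in NG2 tumors. For the 4 probes of Rasgrf1 the ranges were -3.91 to -0.96 and -4.18 to -1.58, and for the 4 of Kalrn they were -4.16 to -2.95 and -6.00 to -2.20. The brightest probe was used throughout, and for Iqsec2 the dimmer probe had the larger falls. Why the probes of a gene differ was not tested. The sizes of the falls depend on the probe, and levels are not compared between genes.

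**Figure D3:**
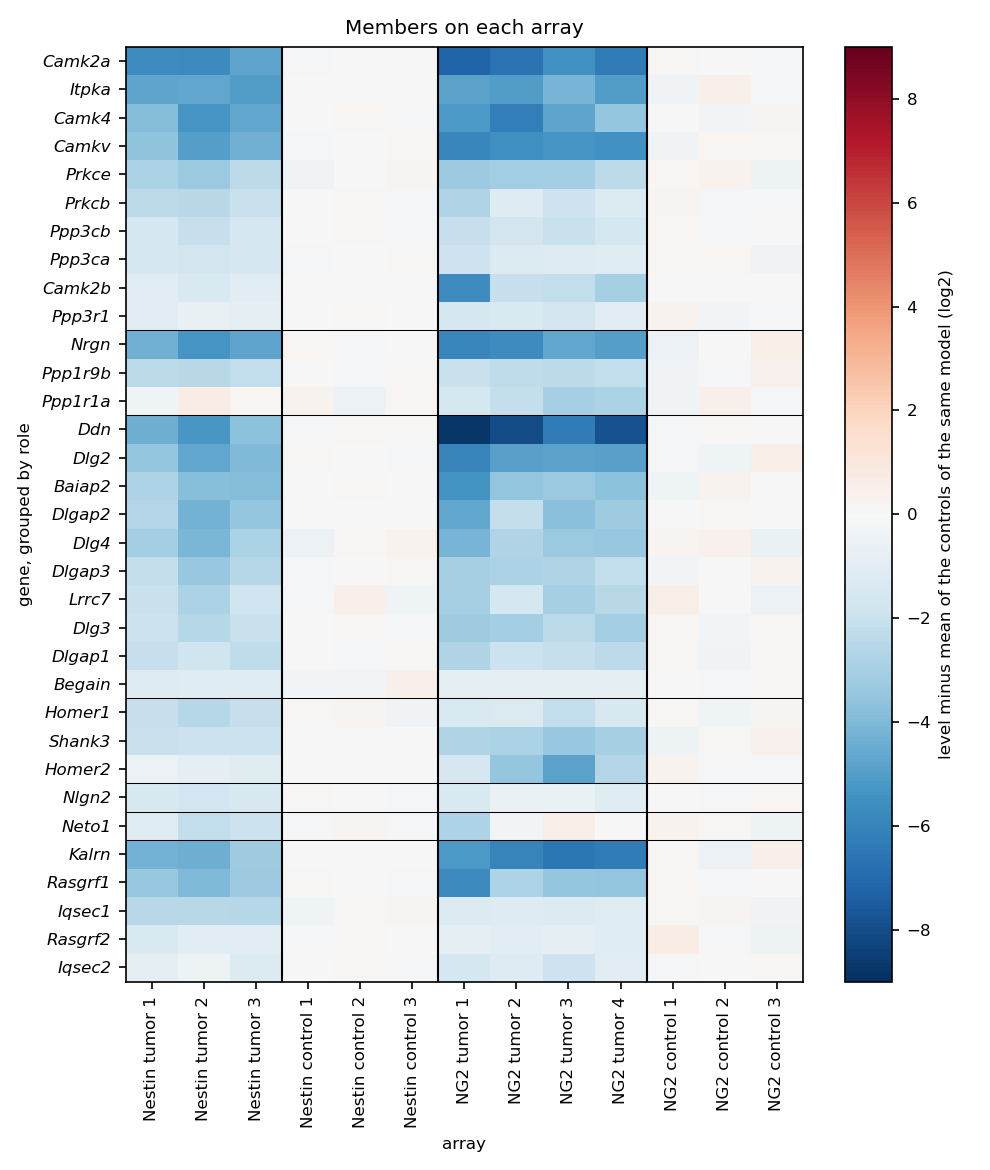
Level of each measured gene on each array minus the mean of the controls of the same model (log2, colour), with genes grouped by role and arrays by group. Blue marks lower levels: the tumor columns are blue for nearly every gene, and NG2 tumor 1 is darkest for Camk2b and Rasgrf1.

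The median SD of a measured member was 0.38 log2 in Nestin tumors, 0.14 in Nestin controls, 0.44 in NG2 tumors and 0.27 in NG2 controls, and over all genes it was 0.30, 0.22, 0.35 and 0.28 in the same order. The largest SD was that of Camk2b in NG2 tumors, at 1.66. Within the Nestin model, Nestin tumor 2 held the lowest tumor level for 22 of 33 members (66.7%, against 39.5% of all genes). Among NG2 tumors, NG2 tumor 1 held the lowest level for 21 of 33 (63.6%, against 25.3% of all genes).

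Neuron markers were lower on the same arrays. Of 17 measured neuron markers, 14 fell in Nestin tumors with a list median of -2.59 log2, and 15 fell in NG2 tumors with a median of -5.13. Their summed signal ran from 15740 to 31420 in Nestin tumors, against 127800 to 130300 in Nestin controls, and from 7002 to 11520 in NG2 tumors, against 136400 to 151800 in NG2 controls. The summed signal of the 33 postsynaptic genes ran from 43090 to 46540, against 178700 to 182600, and from 21050 to 34250, against 147600 to 165600, in the same order. Rbfox3, the gene for the neuronal nuclear protein NeuN, was still at 10.58 to 11.77 log2 in Nestin tumors, against 13.83 to 13.94 in Nestin controls, and at 6.63 to 8.26 in NG2 tumors, against 13.28 to 13.84 in NG2 controls. Slc17a7, the vesicular glutamate transporter of cortical excitatory neurons, was at 4.53 to 8.25 in Nestin tumors, against 11.65 to 12.08 in Nestin controls, and at 4.74 to 6.67 in NG2 tumors, against 11.49 to 11.68 in NG2 controls. Slc17a7 was detected on 2 of 3 Nestin tumor arrays and 1 of 4 NG2 tumor arrays. Most neuron markers were still detected, 15 to 16 of 17 in Nestin tumors and 12 to 16 of 17 in NG2 tumors. In bulk tissue fewer neurons and less RNA per neuron cannot be told apart, and the part of neuron number in the falls was not tested.

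**Figure D4:**
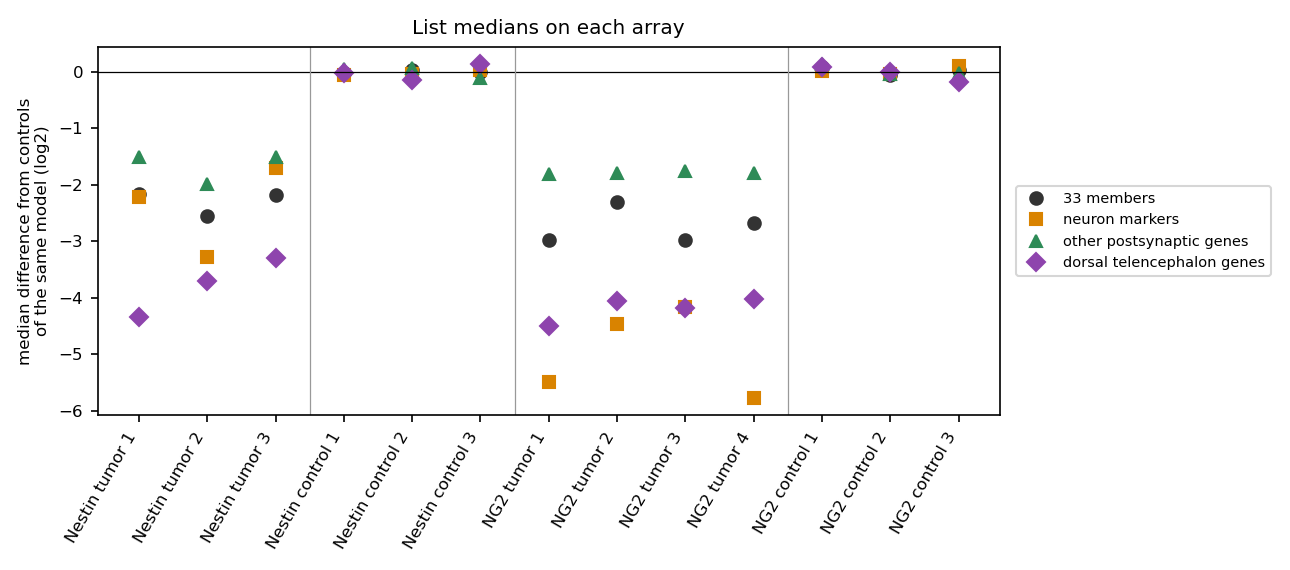
Median over a list of the level minus the mean of the controls of the same model (log2, vertical axis) on each array, for the 33 measured members, neuron markers, other postsynaptic genes and dorsal telencephalon genes. Member medians run from -2.55 to -2.17 in Nestin tumors and from -2.98 to -2.31 in NG2 tumors, while control arrays lie near 0.

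Marker lists of other cells moved as well. Genes of dorsal telencephalon neurons fell in both models, 7 of 7, with 4 to 6 of them detected on Nestin tumor arrays and 3 to 4 on NG2 tumor arrays. Of 10 striatum genes 6 fell in Nestin tumors and 9 in NG2 tumors. Over all measured genes 21.9% were lower and 24.4% higher in Nestin tumors, and 24.1% were lower and 26.6% higher in NG2 tumors. All 7 measured cell division genes rose in both. Of 8 oligodendrocyte and myelin markers, 8 fell in Nestin tumors with a median of -2.76 log2, and in NG2 tumors 5 fell and 2 rose with a median of -1.80. Their summed signal ran from 15150 to 20840 in Nestin tumors, against 56200 to 74690 in Nestin controls, and from 25340 to 49710 in NG2 tumors, against 37840 to 43990 in NG2 controls. Genes of myelin, the sheath that oligodendrocytes make, fell beside the postsynaptic genes in Nestin tumors, while in NG2 tumors their summed signal overlapped that of the controls. The summed signal of 8 oligodendrocyte progenitor markers ran from 12180 to 32350 in Nestin tumors, against 8289 to 13530 in Nestin controls, and from 37560 to 54290 in NG2 tumors, against 10160 to 10870 in NG2 controls. Astrocyte markers summed to 46550 to 96760 in Nestin tumors, against 45790 to 47990 in Nestin controls, and to 23670 to 34850 in NG2 tumors, against 49250 to 54650 in NG2 controls. The 6 microglia and macrophage markers summed to 5845 to 14550 in Nestin tumors, against 2418 to 3388 in Nestin controls, and to 4007 to 9429 in NG2 tumors, against 2508 to 3402 in NG2 controls, and 2 of 6 rose in each model while 1 fell in NG2 tumors. Their part in the results was not tested.

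Other genes of the same machinery gave a less uniform picture. Of 50 further postsynaptic genes, 44 were measured. In Nestin tumors 33 fell and 2 rose, with a median of -1.81 log2, and in NG2 tumors 33 fell and 3 rose, with a median of -1.86. Synpo, synaptopodin, an actin-binding protein of the spine apparatus that is also made in other cells, rose by 2.24 ± 0.55 in Nestin tumors and rose by 2.55 ± 0.51 in NG2 tumors. Neto2, the relative of Neto1, rose by 1.23 ± 0.27 in Nestin tumors (adjusted p = 0.00202) and had a log2 difference of -0.003 ± 0.25 in NG2 tumors (adjusted p = 0.993). The largest falls in Nestin tumors were those of Rph3a (-4.44 ± 0.25), which binds synaptic vesicles and NMDA receptors, Cacng3 (-4.37 ± 0.45), an AMPA receptor subunit partner, and Iqsec3 (-3.82 ± 0.44), the Arf activator of inhibitory synapses. In NG2 tumors the largest were those of Iqsec3 (-6.30 ± 0.41), Akap5 (-4.69 ± 0.44), an anchor of protein kinase A and calcineurin, and Kcnj4 (-4.62 ± 0.27), a potassium channel.

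Among 20 measured further calcium-dependent kinases, phosphatases and regulators, 11 fell and 3 rose in Nestin tumors, and 14 fell and 2 rose in NG2 tumors. Itpkb, a relative of Itpka, rose by 1.99 ± 0.52 in Nestin tumors and rose by 1.66 ± 0.49 in NG2 tumors. Prkcd, a protein kinase C of many cell types, rose by 1.04 ± 0.32 and by 0.97 ± 0.30.

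The tumors of the models were also set against each other. In Nestin tumors 10 of 33 members were higher than in NG2 tumors and 0 were lower at an adjusted p below 0.05, where 5.54% of all genes were higher and 3.45% lower. At an unadjusted p below 0.05 the numbers were 14 and 1, where 1621 of all 11927 genes were higher and 1413 lower. The 10 were Ddn (3.31 ± 0.46 log2), Ppp1r1a (2.42 ± 0.36), Nrgn (2.02 ± 0.34), Camk2a (1.96 ± 0.34), Shank3 (1.79 ± 0.24), Kalrn (1.69 ± 0.36), Itpka (1.39 ± 0.26), Iqsec2 (1.16 ± 0.26), Camkv (1.14 ± 0.28) and Ppp3r1 (1.02 ± 0.18). For each of them every Nestin tumor was above every NG2 tumor, which held for 10% of all genes. With slide as a block in limma the count was 0 (9 at an unadjusted p below 0.05), and with only the tumor arrays fitted it was 5. In the slide fit 0 of all 11927 genes passed in either direction (586 higher and 431 lower at an unadjusted p below 0.05). The count of 0 is therefore no result about the members. No slide allows these tumors to be compared within it. Neuron markers ran the same way, with 8 of 17 higher in Nestin tumors and 0 lower, and their part in this difference was not tested.

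Control brain differed between models for a few members. In Nestin controls 3 of 33 were higher than in NG2 controls and 0 were lower, where 1.69% of all genes were higher and 1.78% lower. At an unadjusted p below 0.05 the numbers were 9 and 0, where 812 of all 11927 genes were higher and 761 lower. Itpka was higher by 1.44 ± 0.28 log2 (adjusted p = 0.00915), Nrgn by 1.55 ± 0.36 (adjusted p = 0.0307) and Iqsec1 by 1.38 ± 0.21 (adjusted p = 0.00175), with no overlap of the arrays given above, as for 13.4% of all genes. On slide 3, with 1 array of each group and no test, 13 of 33 members were lower in Nestin control 3 than in NG2 control 3. The median log2 difference there was 0.30. Nestin control 3 was at 12.08 against 10.50 for Itpka, 12.12 against 11.09 for Nrgn and 7.43 against 5.45 for Iqsec1. For these 3 members the order follows from the lack of overlap and is no further support. With slide as a block Iqsec1 was the only member that passed (1.82, adjusted p = 0.0192), at 1.48 (adjusted p = 0.266) for Itpka and 1.04 (adjusted p = 0.592) for Nrgn. In that fit 23 of all genes were higher and 62 lower. Without Nestin control 1, Nestin control 3 or NG2 control 1 the count was 1. The summed signal of 7 dorsal telencephalon genes was 22960 to 26450 in Nestin controls, against 12260 to 16710 in NG2 controls. Myelin markers summed to 56200 to 74690 in Nestin controls, against 37840 to 43990 in NG2 controls, and 7 of 8 did not overlap. NG2 control 1 stood apart in 10 striatum genes, which summed to 4260 there and to 27940 and 17650 in NG2 controls 2 and 3, against 10910 to 26030 in Nestin controls. Without it the differences were 1.28 (adjusted p = 0.0598) for Itpka and 1.28 (adjusted p = 0.15) for Nrgn. The part of these lists in the differences was not tested, and the sampled brain position is not named.

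The tumor effects of the 2 models differed past the threshold for 4 members, where 2.46% of all genes had a higher Nestin effect and 1.33% a lower one. Ddn, Ppp1r1a and Kalrn had the positive differences, and Iqsec1 was the member with the negative difference. Ddn and Kalrn fell in both models and further in NG2 tumors, while Ppp1r1a fell in NG2 tumors alone. With slide as a block the differences were 3.28 (adjusted p = 0.0554), 2.62 (adjusted p = 0.0577), 1.84 (adjusted p = 0.124) and -1.18 (adjusted p = 0.0708), and none passed, with 6 higher and 1 lower at an unadjusted p below 0.05. In that fit 954 of all genes were higher and 761 lower at an unadjusted p below 0.05. Without NG2 tumor 1 the member numbers were 5 higher and 2 lower, and Camk2b (1.28, adjusted p = 0.0332), Homer2 (2.86, adjusted p = 0.0136) and Neto1 (-1.85, adjusted p = 0.042) were among them. Without Nestin control 2, Nestin control 3 or NG2 control 3 the Iqsec1 difference did not pass, and without Nestin control 2 or NG2 control 3 the number higher was 1. Over the 33 members the fitted difference was above 0 for 21 and below 0 for 12.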

How the data were processed

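Total RNA from flash-frozen tissue was labelled with biotin and hybridised to single-colour Illumina arrays of 45281 probes. The authors deposited non-normalized intensity values, and per the file headers each is paired with a detection p-value; scanner settings were not given in the sources used here. A processed table was also deposited by the authors, read as log2 values of 38563 probes, whose normalization is not given. Each of its columns matched its own array (r at least 0.999985), its column medians ran from 5.286 to 5.306, and its centring stays unknown. It served as an alternative.

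Intensities were corrected with neqc (limma 3.58.1, R 4.3.3), which infers background from the detection p-values, adds 16, quantile normalizes and takes log2. A probe was kept if its detection p was below 0.05 on 3 or more arrays, which left 23904. Gene names came from the platform annotation (32093 probes with 1 symbol, 16 with several and not used, 13172 unnamed here), and 36 members matched RefSeq GRCm38.p6 by Entrez number. The brightest kept probe stood for a gene. With limma, 1 mean was estimated for each group over all 13 arrays (empirical Bayes with intensity trend, 9 residual and 4.67 prior degrees of freedom), tested on simulated data, with Benjamini-Hochberg adjustment over 11927 genes and a threshold of 0.05. A gene detected on no array of a group has a bound: the brighter group's mean over the dim group's, raised on each array to the lowest detected level. The number of arrays limits the precision. The p-values set a difference of group means against the spread within groups, pooled over the groups and moderated over genes.

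The members, lists and tests were chosen with earlier results of these data known. Per-array values are given for the 3 largest falls and the smallest change of each tumor comparison, members past the threshold between controls or in the difference of effects, the brightest members of a role and a few others, chosen after their values were seen (Dlg4, Shank3, Camk2b). The alternatives were other background corrections, median scaling, the processed table, other detection filters, the mean of probes, slide or replicate number as a block, only the groups compared, no trend, values within slides, and leaving out each array. Promoter letters are the 250 bases before RefSeq starts. Protein sequences were not used here.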

Additional observations from a re-analysis of the deposited data

Results flagged for a closer look

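In the 4 NG2 tumors, NG2 tumor 1 passed Dixon's limit for 4 samples, which sets the gap to the nearest array against the group's range, for 2 of the 33 members measured. The level of Ppp3ca was 11.49 log2 in NG2 tumor 1 and 12.12 to 12.24 in the other NG2 tumors, and the gap to its nearest neighbour was 0.839 of the group's range. For Dlg2 the level was 5.13, against 6.13 to 6.27, and the gap was 0.881 of the range. Chance passes the limit in about 1 in 20 groups of independent values, and 2 of 33 is close to that share. The members are not independent here, as NG2 tumor 1 held the lowest NG2 tumor level for 21 of 33 (63.6%, against 25.3% of all genes). The share of all genes past the limit was not computed, so the role of chance was not tested. The changes in NG2 tumors differed from those in Nestin tumors, by a test of the difference itself, for Ppp1r1a (2.54 log2), Ddn (3.29), Kalrn (2.06) and Iqsec1 (-1.35). No slide held tumors of both models, and with slide as a block none of the 4 passed (adjusted p from 0.0554 to 0.124). The Kalrn difference was 0.47 (adjusted p = 0.447) over the mean of its probes, and Iqsec1 was detected on 0 tumor arrays, so its falls are bounds.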

How the results depend on the processing

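The falls in tumors depended little on the processing. Under 11 alternatives, within slides and without each of the 13 arrays in turn, 0 of the members' called changes turned in sign. For 32 of 33 members in each model every tumor array was below every control array. Leaving out an array or fitting within a slide could therefore hardly turn the sign of these falls. The number lower stayed within 1.5 times of 30 in Nestin tumors and 32 in NG2 tumors. It was 27 and 31 after median scaling, and leaving out 1 array gave 28 to 31 in Nestin tumors and 32 each time in NG2 tumors. Calls were lost for Ppp3r1, Neto1 and Iqsec2 in Nestin tumors and for Nlgn2 in NG2 tumors. Median scaling moved the median of all genes to 0.45 and 0.47 log2, and the share of higher among called genes to 72.9% and 71.8%, from 52.6% and 52.4%.

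Comparisons between models moved more. With slide as a block 0 members were higher in Nestin tumors than NG2 tumors, 1 was higher in Nestin controls than NG2 controls, and 0 and 0 passed in the difference of effects. Of all genes 0 were higher in Nestin tumors and 23 in Nestin controls in this fit. In the difference of effects 132 of all genes were higher and 52 lower. With only the groups compared the member counts were 5 between tumors and 5 between controls. Without an array, 0 to 1 members were lower and 8 to 12 higher in Nestin tumors than NG2 tumors, 1 to 4 were higher in Nestin controls than NG2 controls, and the difference of effects had 0 to 2 lower and 1 to 5 higher. Counts of all genes are not given here for the fits of only the groups compared or without an array. The member counts of those fits therefore have no background beside them. The cause was not tested. A replicate block left 0 members lower in the difference of effects and 2 higher, where 91 of all genes were lower and 223 higher. Same-numbered arrays did not deviate together over all genes (correlations of -0.06 to 0.04). Paired tissue need not deviate together, so this cannot decide whether the numbers pair the samples. Levels near background limit the falls of Begain, Iqsec1 and Rasgrf2, of Dlgap3 and Lrrc7 in both models and, in NG2 tumors, of Nrgn, Ddn and Kalrn. Camk4, Dlg2, Dlgap2, Baiap2 and Neto1 were each undetected on 1 NG2 tumor array.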
